A study of Caenorhabditis elegans with 2 samples.

Results

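The genes of the vacuolar ATPase and of autophagy were examined for SOX-4 binding in starved first-stage larvae of Caenorhabditis elegans. They were all protein-coding genes of Ensembl WBcel235 whose symbol begins with vha-, atg-, lgg- or epg-, together with bec-1, unc-51 and vps-34. This gave 46 of 19973 nuclear coding genes, of which 20 were V-ATPase (vha) genes and 26 autophagy genes. The material was 1 group of 2 biological replicates of whole hermaphrodite L1 larvae of strain OP517, genotype unc-119(tm4063) III; wgIs517. The integrated transgene wgIs517 supplies SOX-4, an HMG-box transcription factor, with GFP and FLAG at its C terminus, in animals that carry the unc-119 mutation. Eggs released by bleaching hatched without food, larvae were collected 6 hours after synchronization, and chromatin was precipitated with an antibody to GFP. There were no fed larvae and no larvae without the tagged protein among the samples analysed here, so no value below is a response to starvation, and binding that does not need SOX-4 cannot be told apart from binding that does. In whole animals, strong binding in a few cells and weak binding in many cannot be told apart either.

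The vacuolar ATPase is a rotary proton pump that acidifies lysosomes and other compartments. Its cytosolic V1 sector hydrolyses ATP and its membrane V0 sector carries protons. Autophagy encloses cytoplasm in a double membrane, the autophagosome, which fuses with lysosomes and is degraded there. The Atg1/ULK kinase complex starts the process, a phosphatidylinositol 3-kinase complex marks the membrane, and a pair of ubiquitin-like conjugation systems attaches ubiquitin-like proteins to their targets there. In C. elegans, autophagy genes are needed for normal survival of starved L1 larvae, and the bHLH factor HLH-30, the worm TFEB homologue, activates many autophagy and lysosome genes through E-boxes.

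Several kinds of deposited region list on ce11 were read. The pooled list holds 30000 regions called on both replicates together and includes background, and each replicate has its own list of 30000. The optimal list holds the 1497 peaks that the authors kept by their threshold on reproducibility. These were the 1497 pooled regions of highest signal, down to a signal of 51.3. Signal is the authors' value for each region, and it is comparable only within a list. The list of replicate 2 includes 13 mitochondrial regions, and that of replicate 1 has 0. Read depth is unknown. The promoter window of a gene here runs between 1000 bp before its annotated 5′ end and 200 bp after it, and a region belonged to the gene when its summit fell in that window.

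Vacuolar ATPase and autophagy genes had pooled regions and optimal peaks in their promoter windows at higher shares than other coding genes. A pooled region was present at 30 of 46 members (65.2%, exact 95% interval 49.8 to 78.6), against 7513 of 19927 other coding genes (37.7%). Over all coding genes the share was 37.8%. An optimal peak was present at 10 of the 30 members with a pooled region (33.3%, 17.3 to 52.8), against 1123 of 7513 other coding genes with one (14.9%, 14.1 to 15.8). Over all 7543 coding genes with a pooled region, 15% had an optimal peak. The genes with an optimal peak included epg-7, epg-8, vha-12, vha-9, vha-13, atg-16.1, atg-18 and epg-6. The intervals cover the counting of genes only, and no test was made of the difference, because genes are not replicates of a condition. The excess of optimal peaks rested more on replicate 1 than on replicate 2. With the 1497 strongest regions of replicate 1 alone the shares were 10 of 29 members (34.5%) against 14.5% of other coding genes, with vha-8 among them and vha-9 not. With those of replicate 2 alone they were 5 of 26 (19.2%) against 13.9%, and vha-9, vha-13, atg-16.1, atg-18 and epg-6 were no longer among them.

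Both families had higher shares than other coding genes, but for V-ATPase genes the excess was within the counting intervals. V-ATPase genes had a pooled region at 11 of 20 (55%, exact interval 31.5 to 76.9), beside 37.7% of other coding genes. They had an optimal peak at 3 of those 11 (27.3%, 6.02 to 61), beside 14.9% of other coding genes with a pooled region. Both intervals hold the share of other coding genes. Autophagy genes had a pooled region at 19 of 26 (73.1%, 52.2 to 88.4). They had an optimal peak at 7 of those 19 (36.8%, 16.3 to 61.6). Both autophagy intervals lie above the shares of other coding genes. The median signal of the strongest region was 25 at V-ATPase genes and 23.7 at autophagy genes, beside 21.5 at other coding genes. With replicate 2 alone, the V-ATPase share was 1 of 10 (10%), below that of other coding genes (13.9%), and the autophagy share was 4 of 16 (25%).

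The optimal peaks of the members were not shared with the promoter windows of other coding genes. None of the 10 optimal peaks had its summit in the promoter window of another coding gene. In each case the member's 5′ end was the nearest of any gene, noncoding genes included and pseudogenes left out. Among the 1123 other coding genes with an optimal peak, 648 (57.7%) shared their strongest summit with another coding gene, a share in which each such peak counts once for every gene it serves. Of the same 1123 genes, 782 (69.6%) had the coding 5′ end nearest to that summit. Of the 10 optimal summits, 9 lay in no annotated gene, pseudogenes left out, while that of vha-13 lay within cept-2, the next gene upstream on the same strand. That share was not counted for other coding genes.

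The sequences at the summits of 7 of these peaks show what kind of DNA was recovered. Each holds the pooled summit and the 50 bases on either side of it, on the strand of the gene, from the RefSeq copy of WBcel235. The windows lie at chrX:7334498-7334598 (epg-7), chrX:4190750-4190850 (vha-12), chrII:10303863-10303963 (vha-9), chrV:14351197-14351297 (vha-13), chrX:4462535-4462635 (atg-16.1), chrV:8631541-8631641 (atg-18) and chrIII:10601106-10601206 (epg-6), with epg-7, vha-12 and vha-13 on the plus strand and the others on the minus strand. Capitals mark matches to CACGTG, the E-box that HLH-30 binds, to GAGAGA on either strand (TCTCTC), and to ACAAT on either strand (ATTGT), the core bound by many Sox proteins.
epg-7: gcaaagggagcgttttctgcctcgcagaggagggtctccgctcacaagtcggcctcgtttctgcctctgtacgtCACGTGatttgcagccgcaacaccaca
vha-12: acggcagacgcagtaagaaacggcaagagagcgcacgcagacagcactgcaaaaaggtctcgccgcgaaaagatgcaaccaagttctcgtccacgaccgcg
vha-9: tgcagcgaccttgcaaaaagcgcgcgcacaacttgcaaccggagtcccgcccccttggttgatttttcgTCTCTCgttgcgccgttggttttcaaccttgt
vha-13: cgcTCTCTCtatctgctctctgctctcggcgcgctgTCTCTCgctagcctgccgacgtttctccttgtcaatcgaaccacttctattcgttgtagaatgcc
atg-16.1: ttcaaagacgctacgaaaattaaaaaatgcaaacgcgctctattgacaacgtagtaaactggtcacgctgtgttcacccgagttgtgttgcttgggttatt
atg-18: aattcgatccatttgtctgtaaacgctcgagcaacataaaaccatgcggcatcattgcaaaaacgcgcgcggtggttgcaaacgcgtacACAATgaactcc
epg-6: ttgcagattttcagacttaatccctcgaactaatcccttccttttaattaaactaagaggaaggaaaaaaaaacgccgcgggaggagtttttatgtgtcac

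The summit windows of the optimal members were mostly rich in G and C, and some held GA repeats. Their median GC content was 52.5%, against 46.5% at the 788 distinct summits of other coding genes with an optimal peak. It was 31.7% over all 30000 pooled regions. The windows of epg-8 (36.6%), epg-6 (38.6%) and atg-16.1 (41.6%) were below the median of the other optimal summits. GAGAGA on either strand was present in 4 of 10 windows (exact interval 12.2 to 73.8), those of vha-9 and vha-13 among them. It was present in 16.4% of other optimal summits, a share inside that interval, and in 6.69% of all pooled regions, a share below it. CACGTG, which reads the same on both strands, was present only at epg-7 among the 30 members (3.33%), against 2.12% of the 6473 distinct summits of other coding genes and 2.02% of all pooled regions. ACAAT was present in 2 of the 10 windows, those of atg-18 and epg-8, against 23.9% at other optimal summits and 28.7% over all pooled regions. Among the 20 members with a pooled region and no optimal peak, GAGAGA was present in 4 windows (vha-15, vha-16, epg-2 and atg-7) and the median GC content was 32.2%. The E-box variant CAGCTG was present in 0 of the 30 member windows, against 1.79% of all pooled regions. The forkhead site TGTTTAC was also present in 0 of 30, against 1.31%. The GATA-factor site TGATAA was present in 3 of 30, none of them optimal, against 9.56% of all pooled regions. Every motif was searched on both strands, a window counted once however many matches it held, overlapping ones included, and a match describes the letters and not a bound site.

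Among vha genes of the V1 sector of the proton pump, 8 of 9 had a pooled region (88.9%). Among those of the V0 sector it was 3 of 9 (33.3%, exact 95% interval 7.49 to 70.1), beside 37.8% of all coding genes. Genes of either sector without a vha symbol are not in these counts. The V0 share was thus near that of all coding genes. Neither of the 2 accessory subunit genes had one. All 3 optimal peaks at vha genes were in the V1 sector, at the A, B and F subunit genes. That was 3 of 8 V1 genes with a pooled region (37.5%, exact interval 8.52 to 75.5), and 0 of 3 V0 genes (0 to 70.8). Both intervals hold the 15% of all coding genes with a pooled region. The median signal of the strongest region was 45.3 over the 8 V1 genes and 24.9 over the 3 V0 genes, beside 21.5 over the other coding genes. No test was made between the sectors.

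**Figure D1:**
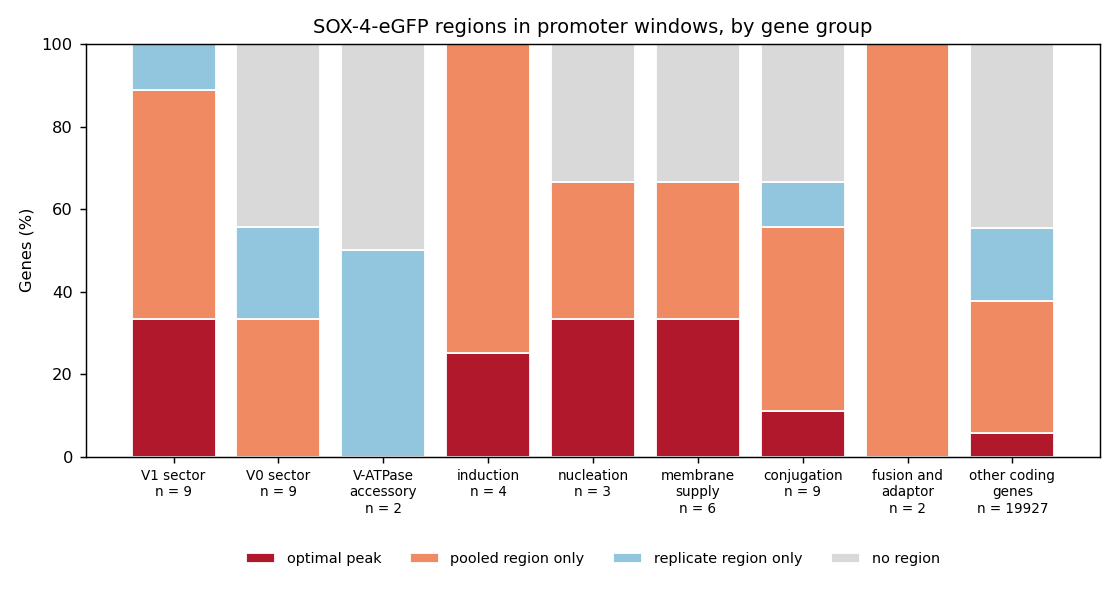
Share of genes (%, vertical axis) in each functional group by the strongest class of SOX-4-eGFP region in the promoter window, where each bar is 1 group with its number of genes below it. V1 sector genes had pooled regions at 8 of 9 and all 4 induction genes had one, while 0 of 2 V-ATPase accessory genes had either, beside 37.7% of other coding genes with a pooled region.

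Among V1 genes, vha-12, which encodes the B subunit, had the strongest peak. Its pooled signal was 83.6 (rank 636 of 30000), with the summit 294 bp upstream of the 5′ end, and its signal was 37.6 in replicate 1 (rank 889) and 44.5 in replicate 2 (rank 611). The peak was thus among the 1497 strongest regions of each replicate. That was not so for the other pair of V1 peaks. At vha-9, the F subunit gene, the pooled signal was 55.4 (rank 1301), 200 bp upstream, and its signal was 21.9 in replicate 1 (rank 2603) and 27 in replicate 2 (rank 1626). At vha-13, which encodes the catalytic A subunit, it was 53.7 (rank 1379), 462 bp upstream, and its signal was 30.6 in replicate 1 (rank 1306) and 24.1 in replicate 2 (rank 2041). The gene vha-9 was thus outside the strongest 1497 of both replicates, and vha-13 outside those of replicate 2.

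Just below the optimal list came vha-8, the E subunit gene, with a signal of 49.9 (rank 1569), followed by vha-15, an H subunit gene, with 40.6 (rank 2264). The vha-8 region had a signal of 31.4 in replicate 1 (rank 1245) and 25.8 in replicate 2 (rank 1783), much like that of atg-16.1 inside the list. Its summit was 484 bp upstream of vha-8 but 102 bp from the 5′ end of the divergent gene C17H12.2, so the region is in the window of both. The vha-15 region was uneven between replicates, with a signal of 11.4 (rank 15447) in replicate 1 and 25.8 (rank 1787) in replicate 2. The remaining V1 genes were below the median of other coding genes, with signals of 17.7 at vha-14 (subunit D), 17.2 at vha-11 (subunit C) and 16 at vha-10 (subunit G). The second H subunit gene, vha-18, had only a region of replicate 1, with a signal of 8.3 (rank 28719).

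The V0 genes with a region were vha-16 (subunit d), vha-3 and vha-1 (subunit c), with signals of 25, 24.9 and 24.7, ranks 6733 to 7014. None of the 3 had a replicate 2 summit in its window. A replicate 2 region did overlap the pooled region of vha-3, with a signal of 18.4 (rank 3914), beside 14.6 (rank 8105) in replicate 1. At vha-3 the summit lay 842 bp upstream, inside Y38F2AL.12, a gene on the opposite strand whose 5′ end was 214 bp away, and that of vha-1 was also in the window of sqv-3. The genes vha-1 and vha-2 both encode the proton-binding c subunit and lie head to tail, 400 bp apart. The second of them, vha-2, had no pooled region and only a weak region of replicate 1 (8.8, rank 26067). Likewise vha-11 follows vha-3 on the same strand after 892 bp. No list had a summit in the window of vha-4, the c″ subunit gene, or of vha-5, vha-6 and vha-7, which encode alternative a subunits. The e subunit gene vha-17 had a region in each replicate (11.6 in replicate 1 and 13.9 in replicate 2) but none in the pooled list. Of the accessory subunit genes, vha-20 had a region of replicate 2 alone (10.8), and vha-19 had none in its window.

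**Figure D2:**
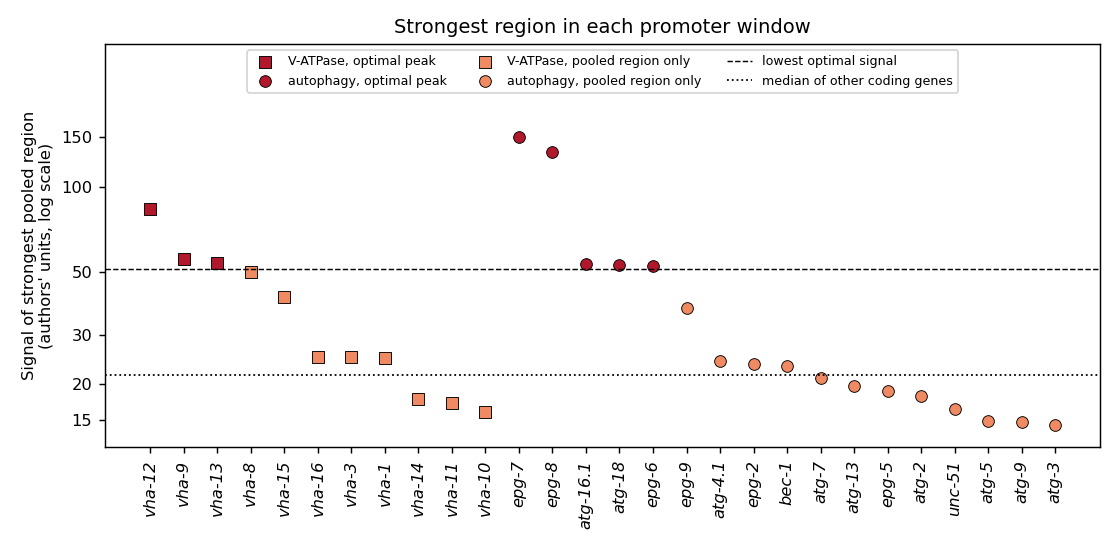
Signal of the strongest pooled region in the promoter window (authors' units, log scale, vertical axis) for 28 members with such a region (horizontal axis), V-ATPase genes as squares and autophagy genes as circles, 1 value per gene from both replicates together. The 8 dark red points lie above the lowest optimal signal of 51.3 (dashed), from 52.5 at epg-6 to 149.8 at epg-7, and the dotted line is the median of other coding genes, 21.5.

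In the Atg1/ULK complex, all 4 genes had pooled regions and epg-7 had the strongest promoter peak of all members. EPG-7 is a scaffold protein of the family of FIP200 and Atg11. Its peak had a pooled signal of 149.8 (rank 206), more than 97.2% of coding genes with a pooled region, and lay 166 bp upstream. It was 68.7 in replicate 1 (rank 280) and 79.6 in replicate 2 (rank 194). The window of epg-9, the Atg101 homologue, held a weaker region of 37.4 (rank 2584). A far stronger optimal peak lay in an intron of epg-9, outside the window, 1032 bp downstream of the 5′ end (chrIV:2602056-2602294). With a signal of 301.1 it ranked 35 in the pooled list and 45 in each replicate, higher than any promoter peak of the 46 genes. The regulatory subunit gene atg-13 had a region of 19.7, and the kinase gene unc-51 one of 16.4. Both were below the median of other coding genes (21.5) and were found in replicate 1 only. A further optimal peak (56.7) was 1552 bp upstream of unc-51, and another (54.3) 1340 bp upstream of epg-9.

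Among the genes of the phosphatidylinositol 3-kinase complex, epg-8, which has the role of mammalian ATG14, had a peak of 132.6 (rank 280), 241 bp upstream. It ranked 200 in replicate 1 (80.2) and 474 in replicate 2 (51.8). The other members of the complex were without an optimal peak. The Beclin 1 gene bec-1 had a region of 23.3 (rank 8268), whose summit was 12 bp from the 5′ end of the snoRNA gene T19E7.29 and 525 bp upstream of bec-1. The kinase gene vps-34 had no region in its window in any list.

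The genes that supply membrane to the growing autophagosome included a pair of peaks close to the end of the optimal list. These were at atg-18, which encodes a WIPI-family phosphoinositide-binding protein (52.9, rank 1418, 264 bp upstream), and at epg-6, a second WIPI-family gene (52.5, rank 1436, 968 bp upstream). Both were stronger by rank in replicate 1. The atg-18 region had a signal of 40.1 in replicate 1 (rank 790) and 17.6 in replicate 2 (rank 4423). For epg-6 the region in replicate 1 had a signal of 38.8 and ranked 843, while the one that overlapped the pooled peak in replicate 2 had a signal of 17.5 and ranked 4496. The strongest region in the epg-6 window in replicate 2 was another one, 179 bp downstream of the 5′ end, with a signal of 25.4 (rank 1850). The lipid transfer gene atg-2 (18.2) and the scramblase gene atg-9 (14.7) had weak pooled regions. The VMP1 homologue epg-3 and the EI24 homologue epg-4 had none in their windows in any list, though 5 pooled regions lay farther inside epg-3 and 2 inside epg-4.

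Of 9 conjugation genes 5 had a pooled region, and 1 of those 5 (20%), atg-16.1, had an optimal peak, a share near the 15% of all coding genes with a pooled region. The atg-16.1 signal was 53.5 (rank 1383), 120 bp upstream. ATG-16.1 is a homologue of Atg16, which places the conjugating complex on the membrane. The atg-16.1 region ranked 1259 in replicate 1 (31.2) and 1681 in replicate 2 (26.5). Its paralogue atg-16.2 had no region in its window in any list. Weak pooled regions were present at the protease gene atg-4.1 (24.1), the E1-like enzyme gene atg-7 (21.1), atg-5 (14.9) and the E2-like enzyme gene atg-3 (14.4). No region of either replicate overlapped those of atg-5 and atg-3, and only a replicate 2 region overlapped that of atg-4.1. The atg-7 summit lay within let-70, which ends 30 bp upstream of atg-7 on the same strand. An optimal peak of 94.2 was 1967 bp upstream of atg-7, nearer to klc-1. The summit at atg-3 lay 187 bp from the 5′ end of Y55F3AM.9. The E2-like enzyme gene atg-10 had a region of replicate 2 alone (12). The protease gene atg-4.2 and lgg-3, which encodes the Atg12 homologue, had no region in their windows. Of the last group, epg-2, an adaptor for degradation of protein aggregates, had a region of 23.7, and epg-5, which tethers autophagosomes to late endosomes and lysosomes, one of 18.9.

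By status, 10 members had an optimal peak, 20 a pooled region only, 5 a region of a single replicate or of both replicates but not of the pooled list, and 11 no region in the window. Over all 19973 coding genes these counts were 1133, 6410, 3555 and 8875. Of the 16 members without a pooled region in the window, 8 had one in the gene beyond it, among them epg-3, epg-4, vha-19, vps-34 and vha-4. Regions beyond the window were not counted for other coding genes, so the 8 have no background share beside them. Of the 30 members with a pooled region, 20 (66.7%) had a region in the window in both replicates, against 4156 of 7513 other coding genes (55.3%). Over all coding genes with a pooled region that share was 55.4%. All 10 optimal members had a region in the window in both replicates, as did 1116 of the 1123 other coding genes with an optimal peak. The optimal list was itself chosen on reproducibility, so this count is not particular to the members. Across the 20 members found in both replicates, the replicate signals had a Spearman correlation of 0.64, beside 0.65 across 4156 other coding genes, as a description over genes that share the same 2 libraries. Each signal is that of the strongest region in the window in that replicate. It need not be the same region in both, as at atg-4.1, vha-10 and epg-6. Ranks within the strongest 1497 regions were reached by 9 of the 10 optimal members in replicate 1 and by 5 in replicate 2, against 84.7% and 82.7% of the other coding genes with an optimal peak. The 5 members outside the strongest 1497 of replicate 2 were the weakest 5 of the 10 by pooled signal, at 52.5 to 55.4.

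**Figure D3:**
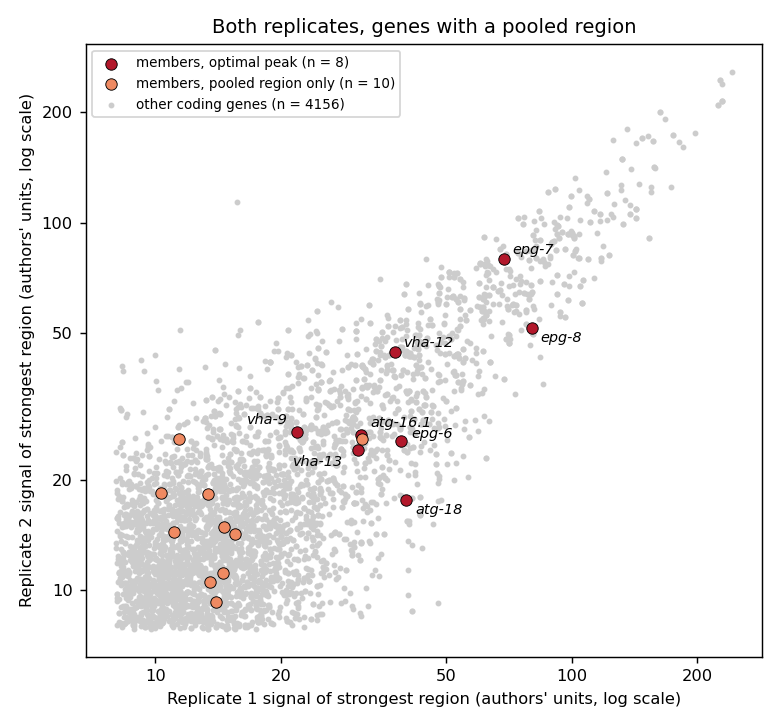
Signal of the strongest region in the promoter window in replicate 1 (horizontal axis) and replicate 2 (vertical axis), both in the authors' units on log scales, for genes with a pooled region and a region in each replicate. Members with an optimal peak (dark red, n = 8) lie toward higher signals than most members without one (orange, n = 10), over 4156 other coding genes (grey), and atg-18 lies toward replicate 1.

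Summits at the members lay mostly at some distance upstream of the annotated 5′ end. The median was 262 bp upstream over the 10 optimal members, against 237 bp over the 1123 other coding genes with an optimal peak. Of the 10, 8 were within 500 bp upstream, against 76.4% of those other genes. The summit of epg-6 was farther away, at 968 bp. Over all 30 members with a pooled region the median was 342 bp upstream, and over the other coding genes 320 bp. Many 5′ ends of C. elegans genes are trans-splice sites, so distance to the annotated end is not distance to the start of transcription.

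**Figure D4:**
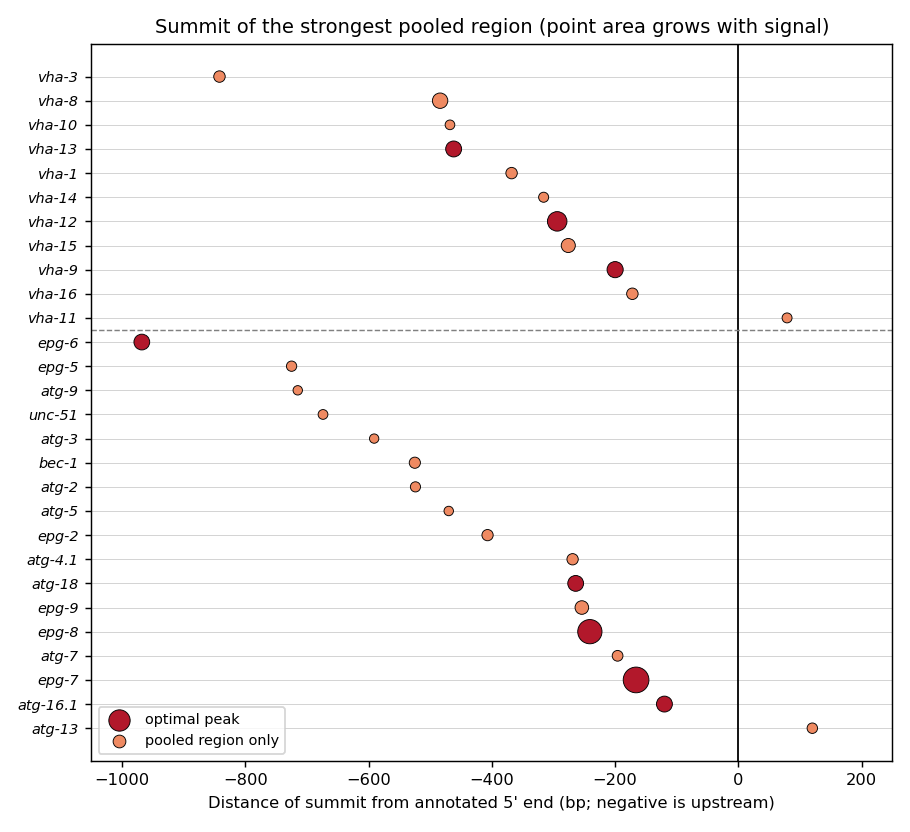
Distance of the summit of the strongest pooled region from the annotated 5′ end (bp, negative upstream) for 28 members with such a region, V-ATPase genes above the dashed line and autophagy genes below it, with point area growing with pooled signal. Of the 8 optimal peaks (dark red), that of epg-6 lies 968 bp upstream and the others lie within 500 bp.

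By chromosome, 3 of 5 members with a pooled region on X had an optimal peak (epg-7, vha-12 and atg-16.1), against 10.3% of other coding genes with a region on X. Without X the shares were 7 of 25 members (28%) and 15.7% of other coding genes.

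Further genes of the pathway and of neighbouring steps were read from lists of 66 genes outside the 46. The list of other autophagy genes includes unc-32 and vps-15, both without a pooled region. Of these, 31 had a pooled region (47%, exact 95% interval 34.6 to 59.7), beside 37.8% of all coding genes. An optimal peak was present at 7 of those 31 (22.6%, 9.59 to 41.1), against 14.9% of coding genes outside both sets with a pooled region. In TORC1 and AMPK signalling, which restrains or starts autophagy according to nutrients, 3 of 9 genes with a region had an optimal peak. They were lmtr-3, a Ragulator subunit gene (78.7), flcn-1, the folliculin gene (57.0), and rheb-1, the Rheb GTPase gene (53.7). Among genes for fusion of endosomes with lysosomes 3 of 9 had one, at rab-7, the late endosomal GTPase gene (103.8), ccz-1, whose product acts in the activation of RAB-7 (74.4), and ppk-3, the PIKfyve lipid kinase gene (64.4). The gene hlh-30 had an optimal peak of 60.0, the only one among 4 other autophagy genes with a region. The lysosomal membrane and hydrolase genes had an optimal peak at 0 of 9 with a region, which allows a share of up to 33.6% (upper limit of the exact 95% interval), and their strongest regions had signals from 15.2 at scav-3 to 30 at lmp-1. The pathway share was lower with replicate 2 alone (4 of 35, 11.4%, against 13.9%) and with genes that shared their summit left out (2 of 18, 11.1%, against 8.75%), an alternative chosen after seeing the data.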

How the data were processed

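Per the labels and the deposited notes, tagged SOX-4 was profiled by ChIP-seq in 2 biological replicates. The authors called regions, with background, on each replicate and on both together with a control alignment, and derived the optimal list by the irreproducible discovery rate. Which caller, version and rate they used is not stated in the labels or notes. The signal and −log10 q-value per region are the authors' own, per the narrowPeak columns they deposited, and only signal was used, within a list. The summit offset they deposited gave the summit. The ce10 lists were not used.

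Coordinates are ce11, 1-based. Gene 5′ ends came from Ensembl release 115 (WBcel235, the ce11 sequence) and bases from RefSeq. All 46 symbols matched RefSeq's. Each gene took the strongest region in its window. Shares have exact (Clopper-Pearson) 95% intervals. No statistical test was run: there is 1 group, and members, lists and motifs were chosen with earlier results of these data known. Counts cover all 46 members, 2 of which are not reported individually here. The text names the other members, and every listed pathway gene with an optimal peak. Alternatives covered windows, 5′ ends, gene assignment, stricter lists, chromosome X and each replicate. Procedures were tested on simulated data. Python 3.11.15, numpy 2.4.6, pandas 2.3.3, scipy 1.17.1 and matplotlib 3.10.9 were used.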

Additional observations from a re-analysis of the deposited data

How the results depend on the processing

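Of 68 recomputed values for the 46 genes and the pathway lists, 63 left the genes described above the other coding genes. Inside the counting interval or spread of the reported value lay 60 of the 68. These intervals rest on few genes and are wide, for instance 6.02 to 61 for the V-ATPase optimal share. The recomputed values also recount the same genes, so these counts do not measure how firm the results are. With the optimal list cut at its median signal, 16.7% of members with a pooled region had a peak (8.96% of other coding genes) and 6.45% of pathway genes (8.97%). A window from 500 bp upstream to 100 bp downstream gave 45.7% of members a pooled region (25%), and the 15000 strongest regions gave 47.8% (23.9%). A window from 2000 bp upstream to 500 bp downstream put 82.9% of members with a pooled region in both replicates (67.8%). Within 25 bp of the summit, 0% of member windows held CACGTG (1%).

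With each replicate left out in turn, the share with an optimal peak ran from 19.2% to 34.5% for members, 10% to 23.1% for V-ATPase genes, 25% to 43.8% for autophagy genes and 11.4% to 24.1% for pathway genes. V-ATPase genes were below other coding genes (13.9%) without replicate 1. The share of members with any region of the remaining replicate's list ran from 56.5% to 63%. Their median signal ran from 14.6 to 18, where other coding genes had 13.3 and 12.8 on those lists' own scales. The narrow window lost epg-6 from the optimal members named, and leaving out replicate 1 lost vha-9, vha-13, atg-16.1, atg-18 and epg-6. Leaving out replicate 2 lost vha-9 and gained vha-8. The cause of these shifts was not tested. No paired analysis was possible because there is only 1 group. Depth is unknown, so a promoter window without a region is not one shown to lack binding.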
